A study of Mus musculus with 8 samples.

Results

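The transcription factor gene Sox9, its partner genes Sox5 and Sox6, the cartilage matrix genes Acan and Hapln1, the joint ligand gene Gdf5 and the adhesion gene Ncam1 were followed in sorted cells of the mouse limb bud. These 7 genes, of the 18193 named singly on the array, were represented by 27 of its 45037 probe sets that are not controls, counting every probe set whose single platform gene symbol was one of them. Sox5 and Ncam1 had 7 probe sets each, Sox6 and Hapln1 had 4 each, Sox9 had 3, and Acan and Gdf5 had 1 each. The embryos were all at stage E10.5 and heterozygous for the Shhgfpcre allele, in which green fluorescent protein (GFP) and Cre are expressed from the locus of the signalling gene Shh. Dissociated limbs were sorted by fluorescence into GFP-positive cells, taken as the zone of polarizing activity (ZPA), which is posterior mesenchyme that secretes Shh, and GFP-negative cells (non-ZPA), which hold all other cell types of the limb. The labels do not say whether samples came from separate litters or sorts, so a p-value here weighs a difference against a spread that may be only technical. Of the 4 ZPA and 4 non-ZPA samples, ZPA replicates 1 and 2 held the same values, apart from rounding, and counted as 1 array (ZPA array 1+2), which left 3 ZPA arrays and 4 non-ZPA arrays.

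Values are the deposited signal intensity, a linear number per probe set that the authors had scaled to the same trimmed mean on each array, with a median of 75.2 to 133.2 over the arrays. The level used as a filter, the 40th percentile of each array, lay between 50.8 and 91.9, and a value below it was not shown to be above background. Shh, at probe set 1436869_at, lay between 6226 and 12149 on the ZPA arrays and between 203 and 1085 on the non-ZPA arrays. The 8 mesenchyme markers summed to between 31135 and 31769 on the ZPA arrays and between 20100 and 31211 on the non-ZPA arrays. Both the sort and the tissue thus had their defining genes. ZPA array 4 had an Actb intensity 21.6 times as high at the 3 prime as at the 5 prime control probe set, against 2.04 to 5.37 times on the other arrays. The bacterial and phage spike-ins stood at 8.16, 1.41 and 5.31 times the non-ZPA mean on ZPA arrays 1+2, 3 and 4. ZPA array 1+2 and non-ZPA arrays 1 and 2 were scanned on one day and the other 4 arrays on a later one.

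Limb cartilage begins when mesenchymal cells gather into condensations, held together by adhesion molecules such as N-CAM, the product of Ncam1. SOX9, a transcription factor with a DNA-binding HMG box, is required for condensations and for the cartilage cells that follow. SOX5 and SOX6 act with it to turn on matrix genes such as Acan, which encodes the proteoglycan aggrecan, and Hapln1, which encodes the link protein that fixes aggrecan to hyaluronan. GDF5, a ligand of the BMP family, acts on condensations and later marks the forming joints.

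Sox9 was lower in ZPA cells at 1 of its 3 probe sets. Probe set 1424950_at had an intensity of 231 on ZPA array 1+2, 143 on ZPA array 3 and 15.5 on ZPA array 4. On non-ZPA arrays 1 to 4 it had 1754, 3344, 2098 and 1917. The groups did not overlap, and the highest ZPA array lay far below the lowest non-ZPA array. The means were 130 ± 108 (SD, n = 3) and 2278 ± 724 (SD, n = 4), a log2 difference, ZPA minus non-ZPA, of -4.37 ± 0.57 (SE; limma, Benjamini-Hochberg adjusted p = 0.00282 over 29525 probe sets). It was the only 1 of the 21 tested probe sets of the 7 genes to pass the test, where 1.28% of all tested probe sets passed as lower and 0.349% as higher. ZPA array 4 lay below the filter level there, so the size of the fall rests in part on a value not shown to be above background, and without that array the log2 difference was -3.49. In bulk samples such as these, fewer cells that express a gene and less RNA per cell cannot be told apart. The arrays also differed with the sort in quality measures. Spike-ins stood at 8.16, 1.41 and 5.31 times the non-ZPA mean on ZPA arrays 1+2, 3 and 4. The Actb ratio was 21.6 on ZPA array 4, which had the lowest Sox9 value. The part of these measures in the difference of Sox9, or of any gene below, was not tested.

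The other Sox9 probe sets did not pass. Probe set 1451538_at, which the platform ties to the same transcript record as 1424950_at, had 447, 112 and 248 on ZPA arrays 1+2, 3 and 4. The 4 non-ZPA arrays, in order, had 518, 290, 591 and 375. The groups overlapped, since ZPA array 1+2 lay above non-ZPA arrays 2 and 4, and the log2 difference was -0.83 ± 0.45 (adjusted p = 0.375). Probe set 1433889_at lay nearer the filter level, between 52.9 and 180 on the ZPA arrays and between 98.5 and 144 on the non-ZPA arrays, with a log2 difference of -0.40 ± 0.50 (adjusted p = 0.735). Its highest value on any array was that of ZPA array 4. Where the probes lie along the transcript was not analysed here. All 3 log2 differences were below 0, and they ran from -4.37 to -0.40.

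**Figure D1:**
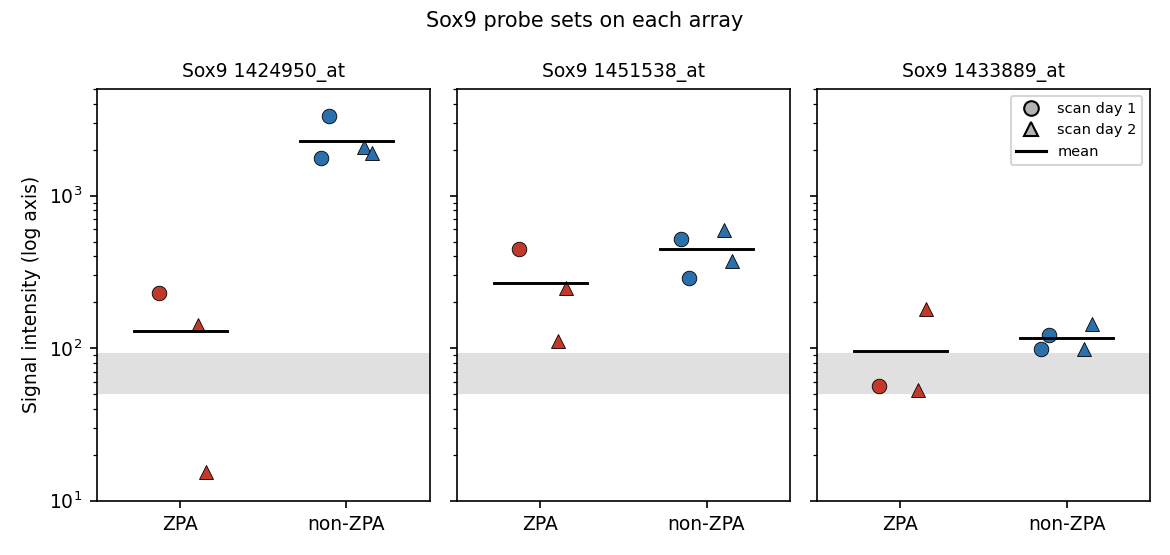
Signal intensity (log axis) of the 3 Sox9 probe sets on each of 3 ZPA and 4 non-ZPA arrays, with circles for scan day 1, triangles for scan day 2, lines at the group means and a grey band over the range of the arrays' filter levels. The groups are apart at 1424950_at, with ZPA at 15.5 to 231 and non-ZPA at 1754 to 3344, and they overlap at the other probe sets.

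Sox5, which encodes a SOX protein without an activation domain of its own, was tested at 5 of its 7 probe sets, and none passed. The clearest difference was at 1432189_a_at, with 22.7, 126 and 204.5 on ZPA arrays 1+2, 3 and 4. Non-ZPA arrays 1 to 4 had 278, 362, 281 and 299 there, all above every ZPA array. The log2 difference was -1.58 ± 0.53 (adjusted p = 0.143), and with the scan day as a block it was -1.72 ± 0.49 (adjusted p = 0.0815). ZPA array 1+2, the lowest, lay below its filter level there, so the size rests in part on a value not shown to be above background. Without that array the log2 difference was -0.85 (adjusted p = 0.171), and with scan day 2 alone it was -0.79. Groups with all ZPA arrays below all non-ZPA arrays were found at 2 of the 21 tested probe sets of the 7 genes, this one and Sox9 1424950_at, and at 8.73% of all tested probe sets. The reverse, all ZPA arrays above, was found at 0 of the 21 and at 7.79% of all tested.

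The brightest Sox5 probe set on average, 1423500_a_at, had 202, 286 and 639 on the ZPA arrays and 498, 854, 412 and 453 on the non-ZPA arrays. ZPA array 4 lay among the non-ZPA arrays, and the log2 difference was -0.64 ± 0.43 (adjusted p = 0.476). It was -0.30 without ZPA array 1+2 and -1.095 without ZPA array 4. Probe set 1455535_at stood at 230 ± 21.9 in ZPA and 322 ± 89.7 in non-ZPA cells (log2 difference -0.42 ± 0.36). Probe set 1440827_x_at, whose suffix marks probes that may also match other transcripts, had 222 ± 107 and 215 ± 101, a log2 difference of 0.04 ± 0.45. Probe set 1452511_at had 131, 13.1 and 19.5 on ZPA arrays 1+2, 3 and 4, with only the first above the filter level, against 76.6 to 109 on the non-ZPA arrays (log2 difference -1.06 ± 0.62, adjusted p = 0.410). The 2 Sox5 probe sets that were not tested, 1432190_at and 1459261_at, were below the filter level on all non-ZPA arrays, and 1432190_at reached 97.4 on ZPA array 1+2 alone.

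Sox6, which encodes a close relative of SOX5 that pairs with it, was tested at all 4 probe sets, and none passed. Probe set 1427677_a_at had 387, 185 and 308.5 on ZPA arrays 1+2, 3 and 4. Non-ZPA values were 668, 768, 430 and 366 on arrays 1 to 4. Within each scan day every ZPA array lay below every non-ZPA array, but over all arrays the groups overlapped, because ZPA array 1+2 lay above non-ZPA array 4. The log2 difference was -0.89 ± 0.39 (adjusted p = 0.264). Probe set 1434918_at had 20.8, 25.3 and 287 on the ZPA arrays and 343, 399, 157 and 125 on the non-ZPA arrays (log2 difference -1.67 ± 0.69, adjusted p = 0.232). Of the ZPA arrays only ZPA array 4 lay above the filter level, and without it the probe set passed (-2.66, adjusted p = 0.0358). That pass rests on ZPA values of 20.8 and 25.3, each below the filter level of its array, so -2.66 is no measured size. With scan day 2 alone the log2 difference was -0.48.

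Probe set 1447655_x_at of Sox6 differed between the scan days. It had 15.2 on ZPA array 1+2, against 378 and 341 on ZPA arrays 3 and 4. The non-ZPA arrays had 378 and 829 on the first scan day and 255 and 280 on the second. ZPA was thus lower than non-ZPA on the first day (log2 difference -4.21) and not on the second (0.41). The difference between the days was 4.61 ± 0.73 on the log2 scale (limma interaction of group and scan day, adjusted p = 0.0264). This was the only 1 of the 21 tested probe sets to pass that test, where 0.969% of all tested probe sets did. That the others did not pass does not show that their ZPA effect was the same on both days. The difference between the days was 2.315 ± 0.723 for Sox5 1432189_a_at and -2.756 ± 0.979 for Hapln1 1438020_at. For 1447655_x_at the first day's ZPA value rests on 1 array, so array and day cannot be told apart. That value, 15.2, lay below the array's filter level of 91.9. The sizes of -4.21 and 4.61 thus rest on a value not shown to be above background. The suffix marks probes that may also match other transcripts. The fourth probe set, 1426018_a_at, lay near the filter level, with 83.2 ± 57.8 in ZPA and 73.9 ± 34.8 in non-ZPA cells.

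**Figure D2:**
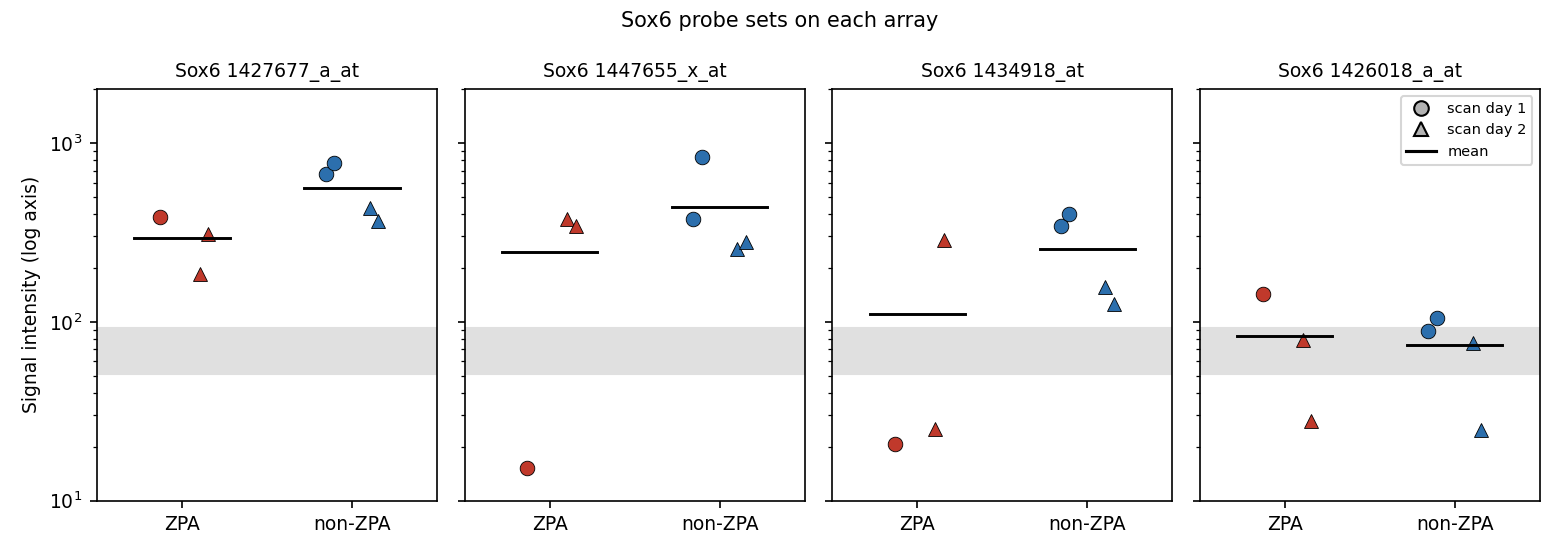
Signal intensity (log axis) of the 4 Sox6 probe sets on each array, drawn with circles for scan day 1, triangles for scan day 2, lines at the group means and a grey band over the range of filter levels. ZPA array 1+2 is the single red circle in each panel, at 15.2 for 1447655_x_at, where the other ZPA arrays are at 341 and 378.

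SOX HMG boxes bind sites around the letters ACAATG or ACAAAG, and the stretches just before the annotated starts of Sox5 and Sox6 are shown because both genes encode and respond to SOX proteins in cartilage. The sequences are the 250 bases before the start, from RefSeq on GRCm38.p6, 5′ to 3′ on the strand of the gene, and capitals mark each match to either set of letters or its reverse complement. For Sox6 the most upstream of 6 annotated starts is shown.
Sox5, chr6:143947107-143947356, minus strand: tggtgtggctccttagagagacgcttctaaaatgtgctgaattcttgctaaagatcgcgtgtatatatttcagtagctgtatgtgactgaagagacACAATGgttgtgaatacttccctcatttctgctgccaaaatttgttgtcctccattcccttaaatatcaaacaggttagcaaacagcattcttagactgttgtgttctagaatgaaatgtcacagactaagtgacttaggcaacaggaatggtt
Sox6, chr7:116038745-116038994, minus strand: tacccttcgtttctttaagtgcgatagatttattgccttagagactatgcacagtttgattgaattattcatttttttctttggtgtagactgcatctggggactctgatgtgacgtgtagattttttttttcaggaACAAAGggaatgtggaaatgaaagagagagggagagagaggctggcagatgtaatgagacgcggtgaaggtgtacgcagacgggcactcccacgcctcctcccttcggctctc
Each of these windows held 1 match. Of all 32851 windows of this length in the table, 25.2% held at least 1, so a match is common. A match is no sign of binding.

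Acan was near the filter level in both groups. Its single probe set, 1449827_at, had 13.8, 11.3 and 179 on ZPA arrays 1+2, 3 and 4. Non-ZPA arrays 1 to 4 had 92.7, 118, 25.7 and 86.3. The highest value was on a ZPA array and the groups overlapped, with a log2 difference of -0.71 ± 0.75 (adjusted p = 0.675). Only ZPA array 4 and non-ZPA arrays 1, 2 and 4 lay above the filter level.

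Hapln1 was tested at its 4 probe sets, and none passed. Probe set 1438020_at had 182, 143 and 21.8 on ZPA arrays 1+2, 3 and 4. On non-ZPA arrays 1 to 4 it had 168, 231, 561.5 and 531.5. The ZPA arrays were all below the non-ZPA arrays of the second scan day, while ZPA array 1+2 lay between the non-ZPA arrays of the first. The log2 difference was -1.71 ± 0.60 (adjusted p = 0.162), and without ZPA array 1+2 it passed at -2.16 (adjusted p = 0.0471). Without ZPA array 4, which lay below its filter level there, it was -0.965 (adjusted p = 0.366). The other probe sets, 1426294_at, 1421633_a_at and 1426295_at, ran from 9.4 to 166 over all arrays. Their log2 differences were 0.25 ± 0.51, -0.58 ± 0.60 and -0.91 ± 0.69.

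The matching stretches before the starts of Acan and Hapln1, which SOX9 activates in cartilage, held no ACAATG or ACAAAG on either strand, and that says nothing about sites elsewhere.
Acan, chr7:79052976-79053225, plus strand: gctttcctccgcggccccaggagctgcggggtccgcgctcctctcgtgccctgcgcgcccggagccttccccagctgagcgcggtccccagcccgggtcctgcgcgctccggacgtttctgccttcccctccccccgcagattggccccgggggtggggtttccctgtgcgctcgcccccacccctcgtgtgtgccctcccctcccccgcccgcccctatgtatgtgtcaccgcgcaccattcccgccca
Hapln1, chr13:89540386-89540635, plus strand: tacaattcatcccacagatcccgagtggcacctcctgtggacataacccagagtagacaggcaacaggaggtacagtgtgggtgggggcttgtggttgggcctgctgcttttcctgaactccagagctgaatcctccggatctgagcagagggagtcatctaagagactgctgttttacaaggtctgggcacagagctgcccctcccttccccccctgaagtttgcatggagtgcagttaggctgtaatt
Across the 4 of the 7 genes found in the table, 6 of 9 windows held a match, 5 of them at Sox6.

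Gdf5 had 1 probe set, 1419139_at. Its intensity was 132, 4.8 and 146 on ZPA arrays 1+2, 3 and 4. On non-ZPA arrays 1 to 4 it was 147.5, 200.2, 24.5 and 118. Both ZPA array 3 and non-ZPA array 3 were low, and the rest lay close together above the filter level. The log2 difference was -0.57 ± 0.77 (adjusted p = 0.757), and without ZPA array 3 it was 0.39, of the other sign.

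At the Ncam1 probe sets with the highest intensities the arrays split by scan day and overlapped between the sorts. Probe set 1426864_a_at had 2463 on ZPA array 1+2 and 460 and 465 on ZPA arrays 3 and 4. The values of non-ZPA arrays 1 to 4 were 1502, 1482, 597 and 537. Every array of the first day lay above every array of the second, in both sorts. With both terms in the fit, the log2 difference of the second day from the first was -1.77 ± 0.32 (adjusted p = 0.0560), and ZPA differed from non-ZPA by 0.12 ± 0.32 (adjusted p = 0.886). Without the scan day in the fit the ZPA difference was -0.18 ± 0.57 (adjusted p = 0.911).

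A second probe set of Ncam1, 1426865_a_at, gave the same order of days. It had 574, 110.5 and 195 on the ZPA arrays and 463, 503, 164 and 126 on the non-ZPA arrays, with a day difference of -1.72 ± 0.37 (adjusted p = 0.126) and a ZPA difference, with the day in the fit, of 0.11 ± 0.37. All first-day arrays lay above all second-day arrays at 5.61% of the tested probe sets, and at 3 of the 21 tested here, the third being Sox6 1426018_a_at. No probe set of the 7 genes passed the test of the scan day, which 0.152% of all tested probe sets did. The summed intensity of the 15 tested cartilage matrix genes was also higher on the first day within each sort. It was 3948 against 2733 and 1898 in ZPA and 7217 and 11287 against 4429 and 3690 in non-ZPA cells. The sums of the condensation, joint and Gdf signalling, and sclerotome lists given below had the same order of days within each sort. For the condensation list 2 of the ZPA sums were close, at 17142 and 17072. The sums of the other lists did not have this order, so it was not particular to cartilage matrix. The summed intensity of the 10 tested markers of neural crest, Schwann cells and neurons, which can express Ncam1, ran from 1365 to 1767 in ZPA and from 2175 to 3210 in non-ZPA cells. Its part in the Ncam1 values was not tested. What else differed between the days is not given in the labels.

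The remaining Ncam1 probe sets were low, and 4 of the 7 were not tested. Among these, 1450437_a_at had 78.7, 94.3 and 174 on ZPA arrays 1+2, 3 and 4, the first of them below the filter level of its array. On non-ZPA arrays 1 to 4 it had 4.7, 27.9, 26.1 and 27.1, all below the filter level and below every ZPA array. It was tested only when the filter was dropped, and then did not pass (log2 difference 1.81 ± 0.57, limma adjusted p = 0.156). The tested probe set 1425126_at had 76.4 ± 87.4 in ZPA and 44.4 ± 33.3 in non-ZPA cells. The other 3, 1439556_at, 1450438_at and 1421966_at, lay between 3.8 and 92.6.

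**Figure D3:**
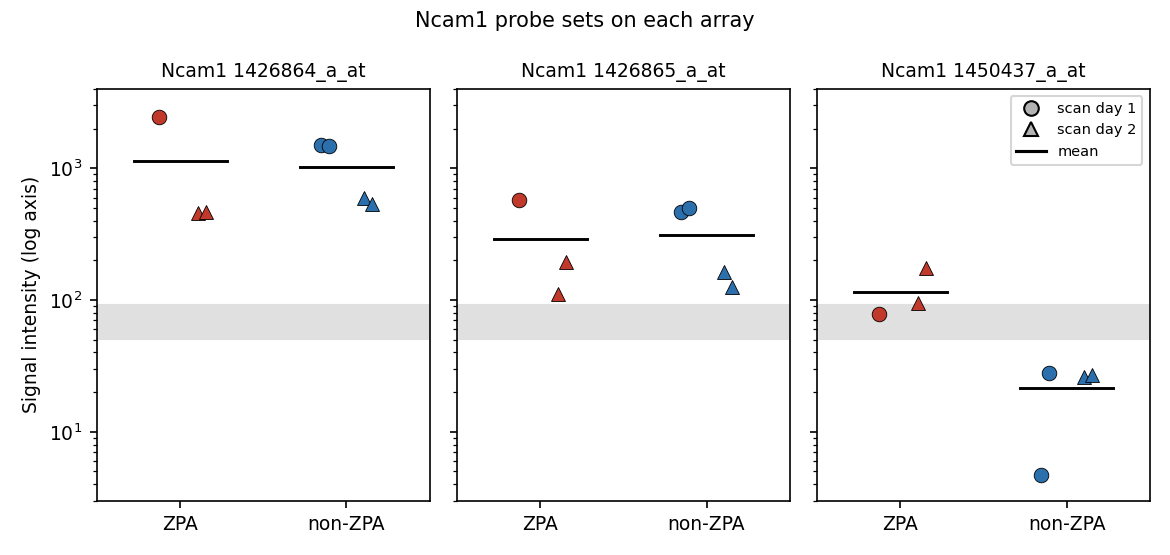
Signal intensity (log axis) of 3 Ncam1 probe sets on each array, with circles for scan day 1, triangles for scan day 2, lines at the group means and a grey band over the range of filter levels. At 1426864_a_at the first-day arrays lie at 1482 to 2463 and the second-day arrays at 460 to 597 in both sorts, and at 1450437_a_at, which was not tested, ZPA lies at 78.7 to 174 and non-ZPA at 4.7 to 27.9.

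Side by side, 17 of the 21 tested probe sets had a log2 difference below 0 and 4 above 0, with a median of -0.64, where 48.9% of all tested probe sets lay below 0 with a median of 0.02. This is a description only, since the filter keeps probe sets that are high in 1 group, and only 7 of the 21 lay above the filter level on all 7 arrays. At an unadjusted p under 0.05 stood 5 of the 21, all lower, against 9.74% of all tested probe sets that were lower and 7.69% that were higher. These 5 were Sox9 1424950_at, Sox5 1432189_a_at, Sox6 1427677_a_at and 1434918_at, and Hapln1 1438020_at. For Sox5, Sox6, Hapln1 and Ncam1 the probe sets of a gene did not all have the same sign. A scaling that set the array medians equal moved every log2 difference by about -0.25, and Sox5 1440827_x_at, Sox6 1426018_a_at and Hapln1 1426294_at were then below 0. The median of all tested probe sets was then -0.233.

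**Figure D4:**
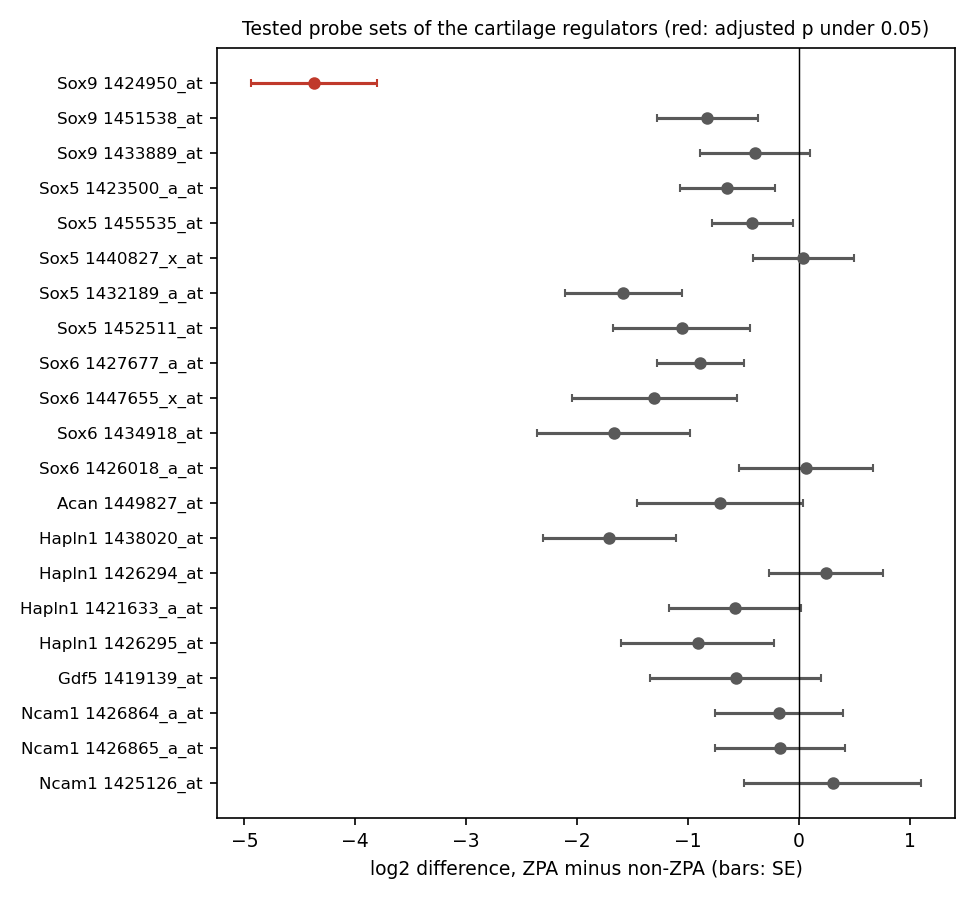
Log2 difference, ZPA minus non-ZPA, of the 21 tested probe sets of the 7 genes, with bars for the SE of the limma fit on 3 and 4 arrays. Sox9 1424950_at (red, -4.37) stands apart from the others, which run from -1.71 to 0.31.

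Other genes that act in the steps from condensation to cartilage were read from 5 lists. Of 11 tested condensation genes, 1 fell and 0 rose, with a median log2 difference of -0.65 (over all 13884 genes with a tested probe set the median was -0.00, and 1.92% passed as lower and 0.396% as higher when 1 probe set per gene was tested). The gene that fell was Cdh2, which encodes N-cadherin, the cadherin of condensing mesenchyme. It had 1236, 921 and 266 on ZPA arrays 1+2, 3 and 4 and 4205, 4050, 4665 and 2711 on non-ZPA arrays 1 to 4 (log2 difference -2.48 ± 0.45, adjusted p = 0.0157). Its other probe set was at 0.17 (adjusted p = 0.858). The call ended without non-ZPA array 2 (adjusted p = 0.0580) or non-ZPA array 3 (adjusted p = 0.0773).

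Of 12 tested regulators of cartilage formation, 2 fell and 0 rose (median -0.50). Trps1, a zinc finger repressor active in growth plate cartilage, had 2756, 849 and 517 on the ZPA arrays and 6252, 7975, 4866 and 3170 on the non-ZPA arrays at its probe set 1438214_at (log2 difference -2.28 ± 0.49, adjusted p = 0.0353). Arid5b, a chromatin cofactor of SOX9, had 1128, 1230 and 796 in ZPA and 4239, 5011, 2868 and 2165 in non-ZPA cells at 1434283_at (log2 difference -1.70 ± 0.35, adjusted p = 0.0302). As with Sox9, 1 probe set of each gene passed, while the other 3 of Trps1 ran from -0.57 to -0.10 and the other 4 of Arid5b from -0.86 to 0.78. Trps1 lost its call without any 1 array other than ZPA array 1+2 (adjusted p from 0.0587 to 0.126), and Arid5b without any 1 array other than ZPA array 1+2 or non-ZPA array 4 (0.0502 to 0.125). Quantile normalization also ended the call of Trps1 (adjusted p = 0.0545), as did counting ZPA replicates 1 and 2 as 2 arrays (0.0576). Scan day 2 alone ended that of Arid5b (0.108), as did a block by replicate number in which ZPA array 1+2 counted as replicate 1 (-1.51, adjusted p = 0.0791).

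None of the 15 tested cartilage matrix genes passed (median -0.32). The 3 most intense were Col9a1, Col11a1 and Col2a1, which encode chains of cartilage collagens. Col9a1 had 1889, 905 and 205 on ZPA arrays 1+2, 3 and 4 and 4381, 6644, 2656 and 2278 on non-ZPA arrays 1 to 4. The groups did not overlap, and the log2 difference was -2.33 ± 0.60 (adjusted p = 0.0685). It passed with the scan day as a block (-2.08, adjusted p = 0.0266) and without ZPA array 1+2 (-3.02, adjusted p = 0.00550). Median centring (adjusted p = 0.0495) also gave a pass, as did the block by replicate number with ZPA array 1+2 as replicate 1 (0.0125) or 2 (0.000545). Col9a1 did not pass with another pseudocount, filter or variance model, quantile normalization or scan day 2 alone. Without ZPA array 4 it was only -1.47 (adjusted p = 0.133), and it did not pass without any other 1 array. Col2a1, the main cartilage collagen and a target of SOX9, stood at 309 ± 183 in ZPA and 653 ± 420.5 in non-ZPA cells (log2 difference -1.04 ± 0.57, adjusted p = 0.377). Without ZPA array 3, at 97.6, the Col2a1 difference was -0.40, and without non-ZPA array 2 it was -0.69. Col11a1 was at 0.12 ± 0.46 (adjusted p = 0.926).

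Of 9 tested genes of joints and Gdf signalling, 1 fell and 0 rose (median -0.16). It was Bmpr1b, the type I receptor that GDF5 prefers, with 73.9, 24.9 and 81.3 on the ZPA arrays, all below the filter level, and 356, 691, 247 and 268 on the non-ZPA arrays (adjusted p = 0.0258). It entered the test through the non-ZPA arrays alone, so only a bound holds: with the ZPA arrays set to their filter levels it was at least 4.20-fold lower, and the fitted log2 difference of -2.40 ± 0.48 is no measured size. Its other tested probe set was at -0.05. The call ended without any 1 array other than ZPA arrays 1+2 and 4 (adjusted p from 0.0629 to 0.116), and with scan day 2 alone (0.141). Without an intensity trend in the variance, none of Cdh2, Trps1, Arid5b and Bmpr1b passed (0.0744 to 0.122). Of the 5 tested genes of hypertrophic cartilage and bone, a later stage, none passed (median -0.14). The 3 most intense of them, Pth1r, Alpl and Sp7, were at -0.79, 0.31 and 0.49.

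**Figure D5:**
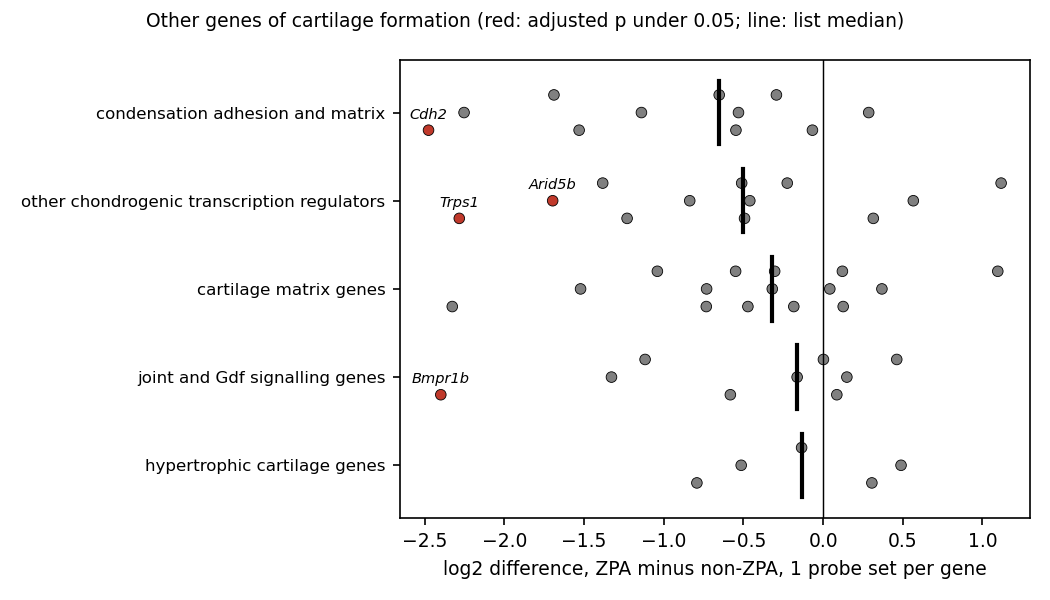
Log2 difference, ZPA minus non-ZPA, of 1 probe set per gene for the tested genes of 5 lists of cartilage formation, with a vertical line at each list median. The 4 genes past the test (red) are Cdh2, Trps1, Arid5b and Bmpr1b, at fitted values from -2.48 to -1.70, that of Bmpr1b with every ZPA array below its filter level.

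Markers of several cell types other than limb mesenchyme moved with the sort, and some of these types can express Sox9, Sox6 or Ncam1. Over all genes, with 1 probe set per gene tested, 1.92% passed as lower and 0.396% as higher. All ZPA arrays lay below all non-ZPA arrays at 8.73% of all tested probe sets, a share of single probe sets and not of sums. Markers of sclerotome and trunk mesoderm, where Sox9 also acts, summed to between 610 and 1988 on the ZPA arrays and between 2278 and 5461 on the non-ZPA arrays over 5 tested genes. Of these 1 passed as lower, Pax1, with 18.4 ± 16.5 against 355 ± 29.0 (adjusted p = 0.00246). All its ZPA values were below the filter level, so it entered the test through the non-ZPA arrays alone, and against the filter levels it was at least 4.16-fold lower. Muscle precursor markers summed to between 331 and 607 in ZPA and between 1512 and 3862 in non-ZPA cells. Of these, 3 of 8 passed as lower (Met, Pax3 and Myf5). Every ZPA value of Myf5 was below the filter level, so it too entered the test through the non-ZPA arrays alone. Surface ectoderm markers summed to between 982 and 2409 in ZPA and between 3898 and 7669 in non-ZPA cells, and 2 of 11 fell (Epcam and Dsp). Erythroid markers overlapped (18762 to 59036 and 37620 to 54682), with 2 of 8 lower (Hba-x and Slc4a1), as did endothelial markers (685 to 2371 and 697 to 2515), with 0 of 6 called. None of the 10 neural markers was called, and the summed levels did not overlap. The part of these cells in the Sox9 difference was not tested.

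By the shape of its values over the 7 arrays, the genes most like Sox9 1424950_at were Eya4, Rraga, Pcdh8, Foxp2 and Igf1. The measure was the root mean square difference of the log2 values, each profile centred on its own mean, which was 0.45 for Eya4, 0.68 for Rraga, 0.74 for Pcdh8, 0.74 for Foxp2 and 0.81 for Igf1. Eya4 had 109, 93.2 and 21.0 on ZPA arrays 1+2, 3 and 4 and 727, 2230, 1123 and 967 on non-ZPA arrays 1 to 4. Its lowest value was on ZPA array 4 and its highest on non-ZPA array 2, as for Sox9, which the choice by likeness favours. The value of 21.0 lay below that array's filter level, as did the Sox9 value there. For the other genes the likest were Erf, Htra1 and Tspan9 to Sox5 (0.18 to 0.20), Kcnmb4, Cpm and Nexn to Sox6 (0.10 to 0.19), and Cd9, Cd200 and Cmtm8 to Acan (0.20 to 0.28). Ctsk, Ecrg4 and Ska2 were likest to Hapln1 (0.28 to 0.40), Gpr153, Ces5a and A030001D20Rik to Gdf5 (0.36 to 0.39), and Zfp784, 1110020A21Rik and Gstt3 to Ncam1 (0.21 to 0.23). Several of these likenesses rest on values not shown to be above background. The genes likest to Ncam1 lay at 7.2 to 27.3 on the second-day arrays, all below the filter level, where Ncam1 1426864_a_at had 460 to 597. A profile that varies little, as for Sox6, has near neighbours by this measure more easily than one that varies much.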

How the data were processed

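Sorted limb bud cells were profiled on Mouse430_2 arrays, named in the deposited experiment files. Per the labels, 50 ng of total RNA went through 2 cycles of amplification for each array. The authors' deposited intensity is linear, with 1 value for each probe set on each array. The submitters' processing notes name GCOS 1.3. Each column had a mean close to 500 after 2% of values were trimmed at each end. No source used here gives the summary method or detection calls. The number of arrays limits the precision.

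The columns of ZPA replicates 1 and 2 differed by at most 0.5 units and were averaged. Values were used as log2(intensity + 16), which understates differences of low genes. Of 45101 probe sets, 64 controls were left out, and 29525 lay above the 40th percentile of their array on at least 3 of the 7 arrays and entered the test (limma 3.58.1, R 4.3.3, intensity trend, 2-sided, Benjamini-Hochberg adjusted p under 0.05). The platform annotation gave 34945 probe sets 1 symbol, 932 several and 9160 none. The test was checked on simulated data. The genes and lists were chosen with earlier results of these data known. Within a list, each gene was represented by whichever tested probe set was brightest on average over the log2 values. Called genes of a list were named, or otherwise its 3 most intense, and any value of another gene was chosen after it was seen. Alternatives were the pseudocount (1 and 64), filter, scaling, 1 probe set per gene, scan day, replicate number, variance model, the duplicate columns and leaving out each array.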

Additional observations from a re-analysis of the deposited data

Results flagged for a closer look

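The ZPA difference of Sox6 1447655_x_at was 4.61 higher on the second scan day than on the first, on the log2 scale (limma interaction, adjusted p = 0.0264). It rests on the 15.2 of ZPA array 1+2, the only ZPA array of the first day, a value below that array's filter level. At Ncam1 1450437_a_at, a probe set that was not tested, non-ZPA array 1 had an intensity of 4.7 and stood apart from the other 3 non-ZPA arrays, at 26.1 to 27.9, by a gap of 0.944 of the range on the log2(intensity + 16) scale, above Dixon's 95% critical value for 4 values. All 4 values were below the filter level. The experiment file of this array records a fluidics fault, whose part in the value was not tested. This was 1 flag among 27 groups of 4 arrays examined, where chance gives about 1 in 20.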

How the results depend on the processing

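Sox9 1424950_at passed the test under all 21 alternatives, with log2 differences from -4.97 to -3.305 and adjusted p up to 0.0335. Among the tested probe sets of the 7 genes, the number that passed as lower was 1, but 6 with scan day 1 alone, where the lone ZPA array is given the spread of the non-ZPA arrays, and 2 with the replicate block and the shared array as replicate 2. It was 1 to 2 when an array was left out, with Hapln1 1438020_at added without ZPA array 1+2 and Sox6 1434918_at added without ZPA array 4. Every ZPA value left at Sox6 1434918_at was then below the filter level, as was that of ZPA array 4 at Hapln1 1438020_at. None passed as higher under any alternative.

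Over all probe sets, 103 were higher and 378 lower. The counts were 66 higher with median centring and 55 higher with 1 probe set per gene. With the scan day as a block they were 191 and 622, with scan day 1 alone 2681 and 3304, without the intensity trend 15 and 83, and with ZPA replicates 1 and 2 counted as 2 arrays 442 and 852. Without ZPA array 1+2 they were 1023 and 1563, without ZPA array 3 218 and 398, and without ZPA array 4 72 and 373. Without non-ZPA arrays 1, 2, 3 and 4 they were 31 and 180, 15 and 110, 14 and 116, and 22 and 144. The cause was not tested. The labels number the replicates alike in both sorts. Serial numbers in the sample titles run consecutively from the ZPA to the non-ZPA sample of each replicate number. The labels do not say whether same-numbered arrays were paired. Correlations of same-numbered deviations were -0.016 for replicate 3 and 0.01 for replicate 4. For the shared array they were 0.036 as replicate 1 and 0.079 as replicate 2. With so few arrays these values cannot show whether the arrays were paired. The replicate block gave 175 higher and 607 lower with the shared array as replicate 2, and 97 and 369 with it as replicate 1.

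Of the 20 other tested probe sets, 12 changed sign under at least 1 alternative, and no value of the other sign passed. With scan day 1 alone the log2 difference was 0.20 for Sox9 1451538_at, -1.01 for Sox5 1440827_x_at, 0.57 for Sox5 1452511_at, 0.30 for Hapln1 1421633_a_at, and 0.72, 0.24 and -0.47 for Ncam1 1426864_a_at, 1426865_a_at and 1425126_at. With scan day 2 alone it was 0.41 for Sox6 1447655_x_at, 0.16 for Acan, -0.38 for Hapln1 1426294_at and 0.028 for Ncam1 1426865_a_at. With quantile normalization and with median centring it was -0.017 and -0.21 for Sox5 1440827_x_at, -0.10 and -0.19 for Sox6 1426018_a_at, and -0.018 and -0.008 for Hapln1 1426294_at. For Ncam1 1426864_a_at and 1426865_a_at it was 0.12 and 0.11 with the scan day block, 0.047 and 0.12 with the replicate block and the shared array as replicate 1, 0.053 and 0.081 with it as replicate 2, and 0.22 and 0.14 with ZPA replicates 1 and 2 counted as 2 arrays, which gave -0.11 for Sox5 1440827_x_at. Leaving out 1 array gave -0.30 to 0.34 for Sox5 1440827_x_at, -0.37 to 0.56 for Sox6 1426018_a_at, -1.09 to 0.39 for Gdf5 1419139_at, -0.97 to 0.22 for Ncam1 1426864_a_at, -0.79 to 0.32 for Ncam1 1426865_a_at and -0.47 to 1.06 for Ncam1 1425126_at.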
